A study of Mus musculus with 8 samples.

Results

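The CXC chemokines described here are 7 genes (Cxcl1, Cxcl2, Cxcl3, Cxcl9, Cxcl10, Cxcl12 and Cxcl16) of the 10 rows whose symbol starts with Cxcl, out of 16889 genes in the table. They were chosen by name, with earlier results of these data known. UMI counts (unique molecular identifiers, 1 per captured transcript) came from single cells of the colonic lamina propria that were sorted as CD11b+ and positive for CCR2 or CD64, in 4 control and 4 cKO mice. All mice were female CD98hcΔCX3CR1 littermates between 6 and 12 weeks old, in which a Cre recombinase fused to the estrogen receptor, with YFP, is driven by the Cx3cr1 promoter and both alleles of CD98hc (Slc3a2) are floxed. The cKO mice received 100 µl of tamoxifen at 20 mg/ml by intraperitoneal injection on 5 days and were analysed on day 7, and the control mice carried the same alleles and received corn oil, so effects of tamoxifen and of the deletion cannot be told apart. Each mouse filled 1 well, and all wells were run together.

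Chemokines are small secreted proteins that guide leukocytes along their gradients. The CXC members that carry an ELR motif (Cxcl1, Cxcl2, Cxcl3) act on Cxcr2 and draw neutrophils, and their genes are classic targets of NF-kB in activated monocytes and macrophages. Cxcl9 and Cxcl10 are induced by interferons and draw T cells and NK cells through Cxcr3, whereas Cxcl12, the ligand of Cxcr4 and Ackr3, is a product of stromal cells, and Cxcl16 is a membrane-bound ligand of Cxcr6 made by macrophages and dendritic cells.

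In GENCODE vM21 on GRCm38, 5 of the 7 genes lay on chromosome 5. The neutrophil-attracting genes were on the plus strand, with Cxcl3 (ENSMUSG00000029379) at chr5:90786103-90789600, Cxcl1 (ENSMUSG00000029380) at chr5:90891241-90893115 and Cxcl2 (ENSMUSG00000058427) at chr5:90903871-90905938. The start of Cxcl1 was 12.6 kb from that of Cxcl2. Cxcl9 (ENSMUSG00000029417, chr5:92321347-92328079) and Cxcl10 (ENSMUSG00000034855, chr5:92346638-92348889) were neighbours on the minus strand. Cxcl12 (ENSMUSG00000061353) was at chr6:117168535-117181367 and Cxcl16 (ENSMUSG00000018920) at chr11:70453983-70459984.

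The 250 bases before the start of 5 members are shown so that the neutrophil-attracting and the interferon-induced genes can be compared for the motifs of NF-kB and of interferon signalling. They are RefSeq sequences on GRCm38.p6, each 5′ to 3′ on the strand of the gene, and end at the RefSeq start, which for Cxcl1, Cxcl2 and Cxcl3 is not the GENCODE start given above. Their positions are chr5:90890995-90891244 (plus) for Cxcl1, chr5:90903649-90903898 (plus) for Cxcl2, chr5:90785851-90786100 (plus) for Cxcl3, chr5:92348890-92349139 (minus) for Cxcl10 and chr5:92328080-92328329 (minus) for Cxcl9. Capitals mark matches, on either strand, to the kappaB consensus of NF-kB or to the interferon-stimulated response element (GAAA, any 2 bases, then GAAA).
Cxcl1: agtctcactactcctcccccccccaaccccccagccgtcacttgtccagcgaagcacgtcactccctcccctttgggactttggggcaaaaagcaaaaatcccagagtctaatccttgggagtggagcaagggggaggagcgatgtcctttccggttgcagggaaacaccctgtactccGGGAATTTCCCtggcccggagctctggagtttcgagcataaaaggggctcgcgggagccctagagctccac
Cxcl2: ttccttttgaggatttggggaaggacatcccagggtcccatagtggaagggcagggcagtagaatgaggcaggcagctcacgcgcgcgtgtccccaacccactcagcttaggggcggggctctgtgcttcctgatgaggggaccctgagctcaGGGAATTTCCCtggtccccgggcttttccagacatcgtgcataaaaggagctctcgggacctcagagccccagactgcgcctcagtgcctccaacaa
Cxcl3: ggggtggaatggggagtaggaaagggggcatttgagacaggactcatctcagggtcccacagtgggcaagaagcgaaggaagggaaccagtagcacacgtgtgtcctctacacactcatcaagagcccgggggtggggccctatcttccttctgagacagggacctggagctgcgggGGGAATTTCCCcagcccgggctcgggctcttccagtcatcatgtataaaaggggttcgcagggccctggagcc
Cxcl10: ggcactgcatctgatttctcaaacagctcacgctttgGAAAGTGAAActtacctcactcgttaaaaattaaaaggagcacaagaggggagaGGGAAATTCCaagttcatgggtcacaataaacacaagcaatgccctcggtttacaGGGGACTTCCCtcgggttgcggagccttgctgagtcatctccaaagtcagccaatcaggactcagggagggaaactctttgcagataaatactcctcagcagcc
Cxcl9: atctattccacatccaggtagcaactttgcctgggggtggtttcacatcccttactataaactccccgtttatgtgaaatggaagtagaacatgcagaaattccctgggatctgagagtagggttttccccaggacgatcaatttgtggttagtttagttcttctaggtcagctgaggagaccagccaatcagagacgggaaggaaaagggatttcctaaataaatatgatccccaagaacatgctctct

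Cxcl1, Cxcl2 and Cxcl3 each held the same kappaB word, GGGAATTTCC, starting 71, 97 and 73 bases before the RefSeq start, which lies at the end of each window. The pattern GGGA, any base, then TTTCC, a stricter form of the consensus with which it shares its matches, was found in 0.411% of 32851 promoter windows of 300 bases, and the kappaB consensus in 8.46%. Cxcl10 held other kappaB consensus words and the interferon-stimulated response element GAAAGTGAAA, whose pattern was in 3.44% of the windows. The window of Cxcl9 held neither. Such matches describe letters, not binding.

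The libraries held 5947 barcodes, of which 3213 passed the filters, 1863 from control and 1350 from cKO mice. Control replicate 3 (85 cells) and cKO replicate 5 (83 cells) stood apart by their yield, and the other libraries kept between 349 and 724 cells. The kept cells of a mouse held between 497531 and 3762314 UMIs. In all, 25 barcode sequences appeared in more than 1 library, 8 of them among kept cells. In cKO replicate 5 a doublet caller marked 23 cells, which stayed in. Slc3a2 was at 337 ± 117 CPM (UMIs scaled to the same total in every sum) in control and 320 ± 27.9 CPM in cKO mice (SD, n = 4 each), but a 3' tag lies outside the excised exon and does not check the deletion. The macrophage and monocyte markers of the sort were present, with macrophage markers summing to between 10441 and 24375 CPM per mouse. Of 13 neutrophil markers in the table, 5 had under 10 UMIs in all kept cells (S100a9 5, Retnlg 7, Cxcr2 8, Ngp 1 and Ltf 9). Others were present, with 76 UMIs of S100a8, 48 of Ly6g, 218 of Lcn2, 298 of Mmp8, 712 of Csf3r, 740 of Trem1 and 2687 of Il1r2, some of which monocytes also express.

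Cells were grouped into 9 clusters, named by their markers or leading genes. The CXC genes, the lists tested below and a list of genes tied to the condition were left out of the grouping. There were 551 dendritic cell-like, 542 monocyte-like, 397 macrophage-like, 250 low-depth macrophage-like, 181 lymphoid-like and 86 stromal-like cells. A further 3 clusters had no name from markers and are called by their leading genes Ccl24/Fam213b (478 cells), Cebpb/Ier5 (416 cells) and Saa3/Il1a (312 cells). In the Cebpb/Ier5 and low-depth macrophage-like clusters the cells held 0.389 and 0.225 times the median UMIs of their own mouse. Levels below are CPM. The UMIs were added up over all cells of a mouse or over its cells in 1 cluster, where it had at least 20. UMIs are counted at the 3' end, so CPM does not depend on gene length.

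The members differed widely in abundance. Cxcl2 was the most abundant, with 49614 UMIs in 2200 of the kept cells. Cxcl16 followed with 6443 UMIs in 1806 cells, and Cxcl3 had 2256 UMIs in 722 cells. Cxcl10 had 2103 UMIs in 481 cells, Cxcl1 1240 in 193, Cxcl12 1187 in 142 and Cxcl9 946 in 169. Of the Cxcl rows that are no members, Cxcl13 had 558 UMIs, Cxcl14 150 and Cxcl5 123. Control mice gave 121 of those of Cxcl5, and 106 came from control replicate 4 alone. The CXC family members Pf4 and Ppbp had 4487 and 34 UMIs.

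Across all cells of a mouse, Cxcl10 was higher and Cxcl12 lower in cKO mice, and the other 5 members did not pass the test (edgeR quasi-likelihood test, Benjamini-Hochberg over 11387 genes, threshold 0.05). These 2 calls of 7 stand beside 4.48% of all genes tested. In such sums, fewer cells of a type and less RNA per cell cannot be told apart.

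**Figure D1:**
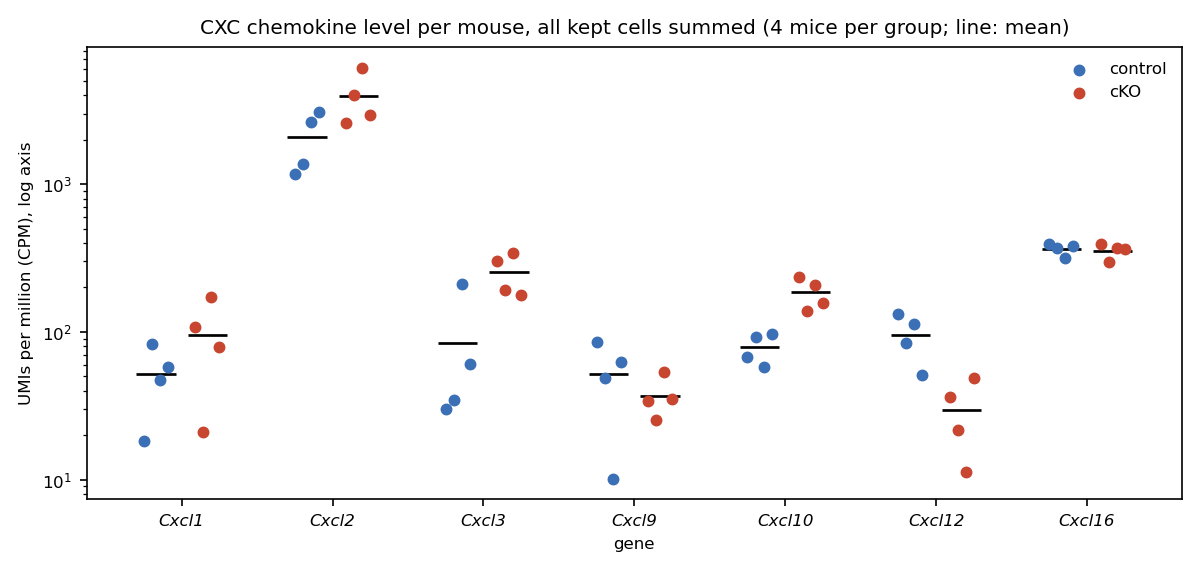
CXC chemokine level of each mouse, all kept cells summed, in CPM on a log axis, for 4 control (blue) and 4 cKO (red) mice, with the mean as a line. The groups separate for Cxcl10, where cKO mice sit between 138 and 237, and for Cxcl12, where they sit between 11.3 and 48.6, and overlap for the other members.

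Cxcl10, the interferon-induced ligand of Cxcr3, was at 68.0, 91.7, 57.7 and 96.6 CPM in control replicates 1 to 4 and at 237, 138, 209 and 157 CPM in cKO replicates 5 to 8. Every cKO mouse was above every control mouse, which held for 4% of all genes tested. The mean was 185 ± 45.5 against 78.5 ± 18.7 CPM (SD, n = 4 each), with a log2 fold change of 1.31 (SE 0.21, edgeR adjusted p = 0.00623).

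Cxcl9, its neighbour on chromosome 5, did not pass the test. It was at 85.3, 48.9, 10.2 and 62.9 CPM in control and at 34.2, 25.4, 53.5 and 35.0 CPM in cKO mice, so the groups overlapped (log2 fold change -0.45, SE 0.39, edgeR adjusted p = 0.556). The ratio of Cxcl10 to Cxcl9 CPM was 0.798, 1.87, 5.67 and 1.53 in control and 6.94, 5.45, 3.90 and 4.50 in cKO mice. Control replicate 3, where the ratio rests on 6 UMIs of Cxcl9, overlapped with the cKO mice, and the other 3 control mice lay below all of them.

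Cxcl12, the stromal ligand of Cxcr4, was at 133, 83.8, 114 and 51.5 CPM in control and at 36.2, 21.8, 11.3 and 48.6 CPM in cKO mice. Every cKO mouse was below every control mouse, which held for 8.34% of all genes tested. The log2 fold change was -1.64 (SE 0.40, edgeR adjusted p = 0.0393), from 95.5 ± 35.6 to 29.4 ± 16.3 CPM. Stromal-like cells held 93.8% of its UMIs in control and 88.6% in cKO mice, and they made up 3.65% of control and 1.33% of cKO cells. The 14 stromal markers had a median log2 fold change of -1.16. None passed by the edgeR quasi-likelihood test, 8 were lower at an unadjusted p under 0.05, and 3 were lower by DESeq2 and 6 by the likelihood ratio test. Over pooled cells the matrix genes Dcn and Sparc were at 372 and 210 CPM in control and 174 and 99.8 CPM in cKO mice. The summed markers, between 1928 and 3570 CPM in control and between 1409 and 2379 CPM in cKO mice, are mostly Vim, which other cells also express (1237 and 1371 CPM pooled). The stromal markers thus moved with Cxcl12, and the part of stromal cell number in the result was not tested. The call was lost with the stromal-like, lymphoid-like and dendritic cell-like clusters left out (log2 fold change -1.43, edgeR adjusted p = 0.253), with doublet calls left out (-1.52, adjusted p = 0.0649) and without control replicate 3 and cKO replicate 5 together (-1.60, adjusted p = 0.085). It was also lost without each of control replicates 1, 2 and 3 and cKO replicates 5, 6 and 7, with log2 fold changes between -1.70 and -1.32.

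Cxcl3, a neutrophil attractant, was at 30.3, 34.6, 210 and 60.9 CPM in control and at 303, 193, 341 and 177 CPM in cKO mice. Control replicate 3 lay within the cKO range, and the other 3 control mice were below all cKO mice. The log2 fold change of 1.83 (SE 0.54) missed the threshold (edgeR adjusted p = 0.0759). Without control replicate 3 it passed (2.71, adjusted p = 0.00197).

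Cxcl2, the most abundant neutrophil attractant, was at 1171, 1377, 2648 and 3092 CPM in control and at 2601, 4016, 6162 and 2932 CPM in cKO mice, and the groups overlapped. Its log2 fold change was 1.03 (SE 0.34, edgeR adjusted p = 0.115), and without control replicate 4 it passed the threshold (1.27, adjusted p = 0.0493). Cxcl1 was at 18.3, 82.6, 47.5 and 57.9 CPM in control and at 109, 21.2, 173 and 79.6 CPM in cKO mice (log2 fold change 0.997, SE 0.53, adjusted p = 0.32).

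Cxcl16 varied least among the members. It was at 393, 370, 316 and 381 CPM in control and at 394, 297, 370 and 362 CPM in cKO mice (log2 fold change 0.06, SE 0.14, edgeR adjusted p = 0.864).

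The summed CPM of the neutrophil-attracting members was set against that of the interferon-induced ones. The first sum is nearly all Cxcl2, and the second joins Cxcl10, which was called higher, with Cxcl9, which was not called, so the ratio is mostly one of Cxcl2 to these. The log2 ratio, with 1 CPM added to each sum, was 2.98, 3.40, 5.40 and 4.32 in control and 3.47, 4.68, 4.66 and 4.04 in cKO mice. The means, 4.03 ± 1.07 and 4.21 ± 0.58, differed by less than the spread between mice. Within clusters it was 1.63 ± 0.86 in control and 2.61 ± 0.51 in cKO dendritic cell-like cells, and 4.92 ± 2.14 and 5.07 ± 0.56 in monocyte-like cells. In macrophage-like cells it was 4.65 ± 0.31 in 3 control mice and 2.55 in the 1 cKO mouse with a value, with no test.

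Levels across clusters are a description, since the clusters were built from these cells. The members followed different clusters.

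**Figure D2:**
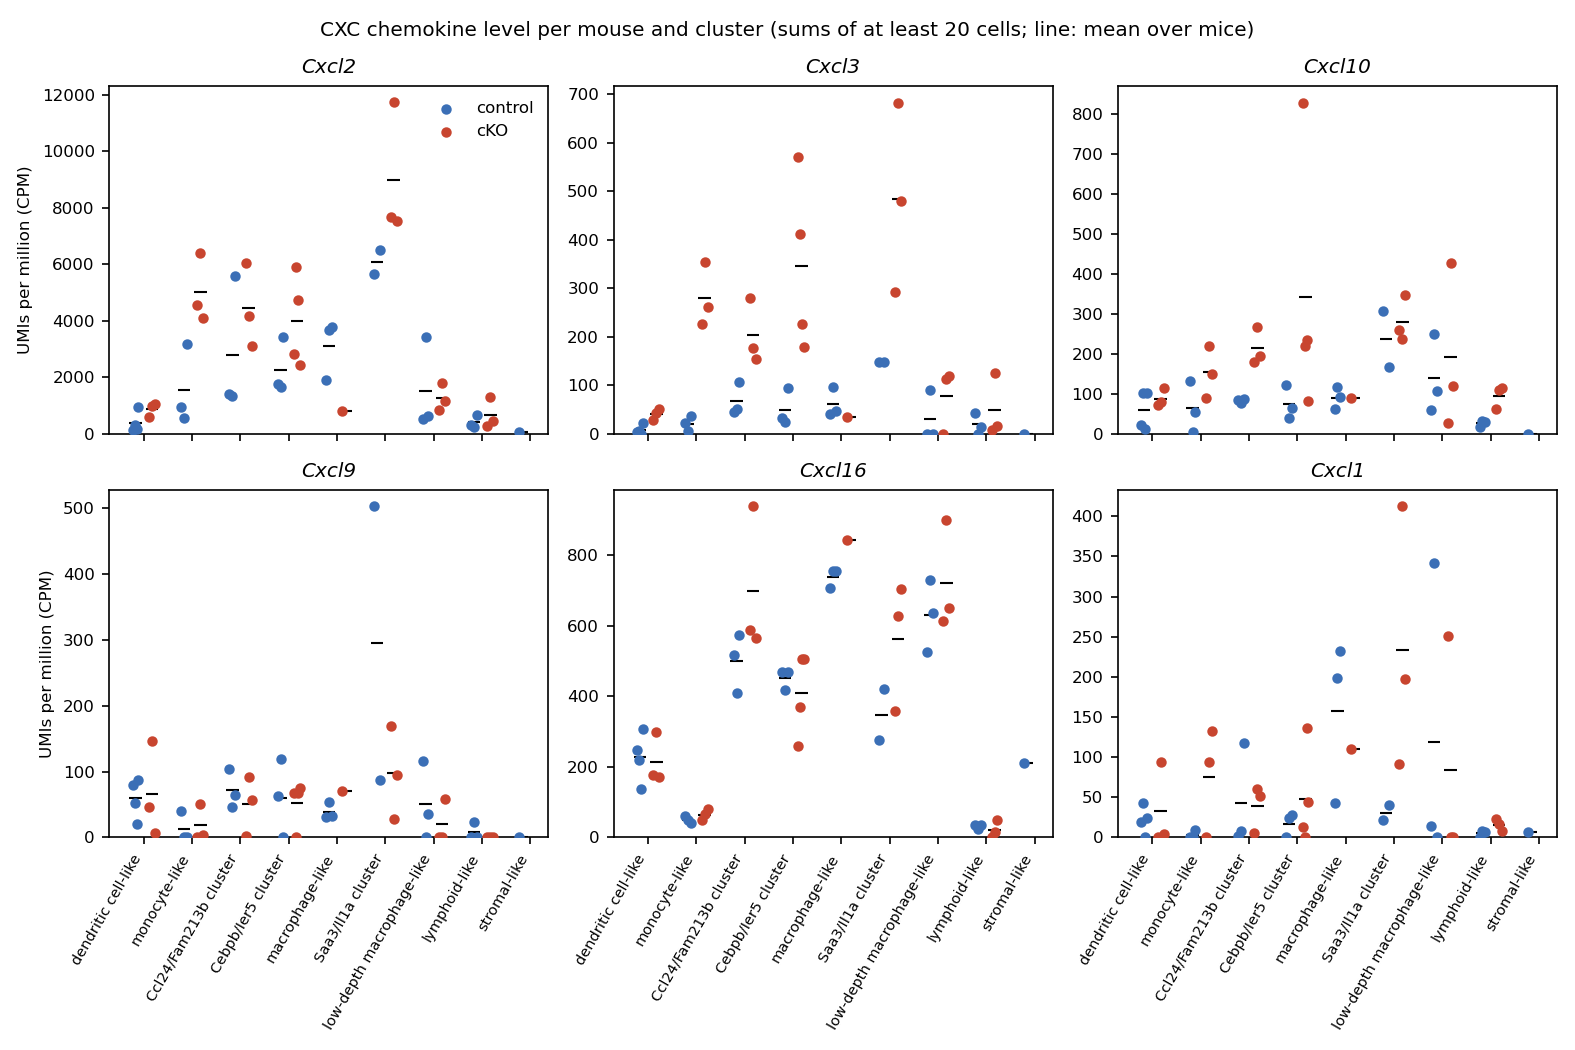
Level of 6 CXC chemokines per mouse and cluster in CPM, each panel with its own linear axis, for sums of at least 20 cells of control (blue) and cKO (red) mice, with the mean over mice as a line. Cxcl2, Cxcl3 and, in control mice, Cxcl9 and Cxcl10 are highest in the Saa3/Il1a cluster, and Cxcl16 in the macrophage-like cluster.

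Cxcl2 was highest in the Saa3/Il1a cluster, whose leading genes Arg1, Inhba, Acod1, Il1rn and Ptgs2 mark activated myeloid cells, at 6097 ± 601 CPM in 2 control mice and 8984 ± 2376 CPM in 3 cKO mice. In control mice it was followed by the macrophage-like cluster, in the same order in both mice that had both. In cKO mice it was followed by monocyte-like cells, in that order in all 3 mice. The lymphoid-like cells, which should lack Cxcl2, held 400 ± 219 and 673 ± 540 CPM.

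Cxcl3 was likewise highest in the Saa3/Il1a cluster, at 148 and 149 CPM in control and at 293, 683 and 479 CPM in cKO mice. In cKO mice its levels in the Cebpb/Ier5 and monocyte-like clusters came next, and the order between these was kept in only 1 of 3 mice. Cxcl1 was highest in macrophage-like cells of control mice (158 ± 100.6 CPM, n = 3) and in the Saa3/Il1a cluster of cKO mice (234 ± 164 CPM, n = 3). In the 18 stromal-like cells of cKO mice, too few for a sum, it was at 478 CPM from 44 UMIs. Few cells carried it, and 1 cell of the Saa3/Il1a cluster held 170 UMIs of Cxcl1.

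Cxcl9 was highest in the Saa3/Il1a cluster of control mice, where the values of 503 and 87.5 CPM lay far apart. Cxcl10 was highest there too in control mice, at 307 and 166 CPM. In cKO mice its mean was highest in the Cebpb/Ier5 cluster, which rested on 828.7 CPM in cKO replicate 5, and in none of the 3 mice with both clusters was that cluster above the Saa3/Il1a cluster.

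Cxcl16 was highest in macrophage-like cells, at 707, 755 and 755 CPM in control mice. It was lower in low-depth macrophage-like cells (630 ± 102.2 CPM) and lower again in the Ccl24/Fam213b cluster (501 ± 83.3 CPM), each in 3 of 3 control mice. Dendritic cell-like cells held 228 ± 70.1 CPM, and monocyte-like cells 50.5 ± 10.4 CPM. In monocyte-like cells it was above lymphoid-like cells (31.4 ± 6.72 CPM) in all 3 control and all 3 cKO mice.

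Cxcl12 was at 3373 CPM in the stromal-like cells of control replicate 1, the one mouse with 20 such cells. Pooled over mice it was at 2796 CPM in control and 1858 CPM in cKO stromal-like cells (exact 95% Poisson intervals 2619 to 2981 and 1590 to 2158, counting error only). It was found in 66 of 68 control and 15 of 18 cKO stromal-like cells, and the next level was that of lymphoid-like cells of control mice (63.5 ± 11.7 CPM).

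Over 48 sums of a mouse and cluster, the genes most like Cxcl2 in log2(CPM + 10) were Rab20, Ccrl2 and Cd14 (Pearson r 0.93, 0.91 and 0.88 of 4731 genes). Those most like Cxcl3 were Rab20, Cdkn1a and Trem1 (0.81, 0.79 and 0.79), and those most like Cxcl10 were Il1rn, Ccrl2 and Nampt (0.71, 0.71 and 0.67). Cxcl12 was most like the matrix genes Sparc, Ccn1 and Mgp (0.86, 0.84 and 0.82), and Cxcl16 like Dab2, Aif1 and H2-Aa (0.92, 0.89 and 0.84). Likeness was weaker for Cxcl9 (Cd40 0.64, H2-DMb1 0.61, Tnip3 0.61) and Cxcl1 (Mgat4a 0.55, Adap2 0.52, Smim3 0.51). Among members, r was 0.87 between Cxcl2 and Cxcl3, 0.77 between Cxcl3 and Cxcl10, and 0.32 between Cxcl9 and Cxcl10. The sums share mice, libraries and depth, so these are descriptions.

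Within clusters, the question was whether a member differed between cKO and control cells of the same cluster. Of 49 tests, 7 members in each of 7 clusters, 2 passed, both of Cxcl3. In monocyte-like cells 1 of 7 members was called, beside 0.947% of the 11302 genes tested, and in the Cebpb/Ier5 cluster 1 of 7, beside 0.345%. In the other clusters 0 of 7 members were called by edgeR, beside 0.442% of genes in dendritic cell-like cells, 0.637% in the Ccl24/Fam213b cluster, 0.54% in the Saa3/Il1a cluster, 0.0796% in low-depth macrophage-like and 0.0619% in lymphoid-like cells. At an unadjusted p under 0.05, edgeR named 2, 2, 4, 0 and 1 members there.

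**Figure D3:**
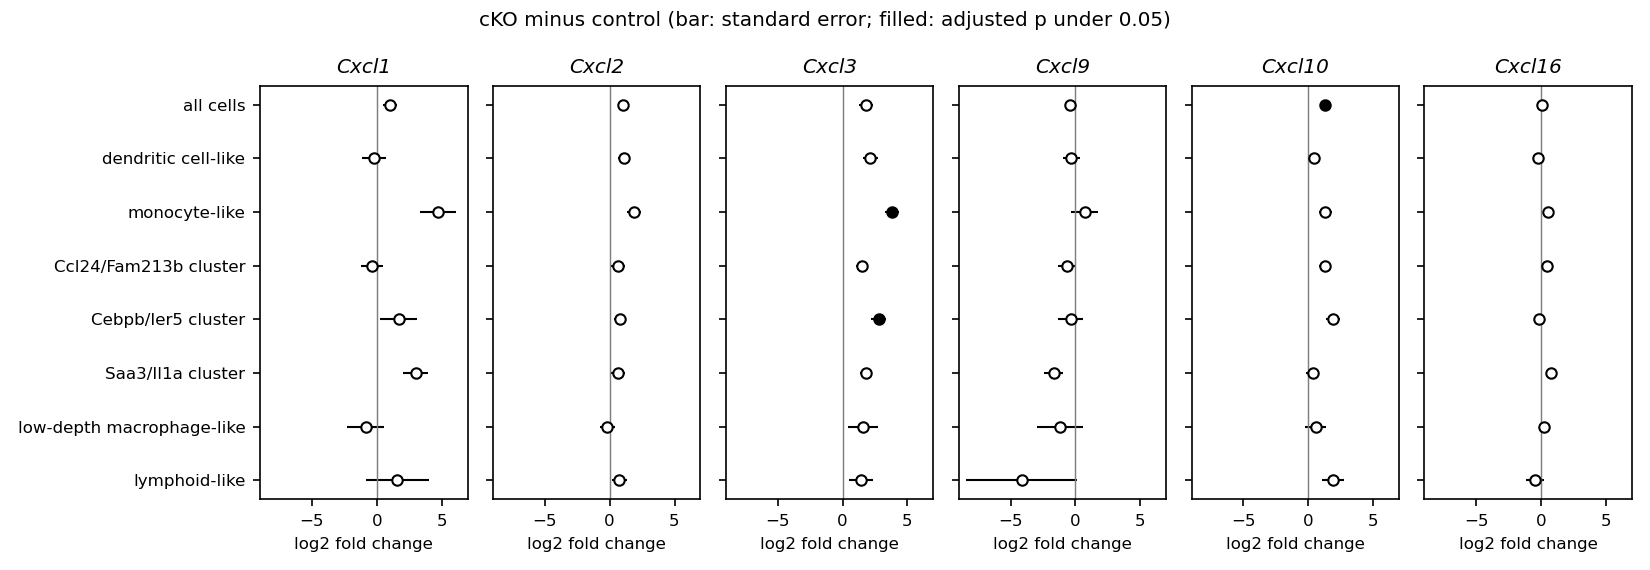
Log2 fold change of cKO against control for 6 CXC chemokines in all cells and in each cluster fitted, with the standard error as a bar and filled points where the edgeR adjusted p was under 0.05. Filled points are those of Cxcl10 in all cells and of Cxcl3 in monocyte-like cells and the Cebpb/Ier5 cluster.

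In monocyte-like cells, with Chil3 and Ly6c2 among their leading genes, Cxcl3 was at 21.5, 5.58 and 35.8 CPM in control replicates 1, 2 and 4 and at 227, 353 and 261 CPM in cKO replicates 6, 7 and 8. Every cKO mouse was above every control mouse, as for 7.67% of the genes tested in this cluster. Cxcl3 rose from 20.98 ± 15.1 to 281 ± 65.2 CPM (SD, n = 3 each), with a log2 fold change of 3.82 (SE 0.56, edgeR adjusted p = 8.76e-06). The 2 mice with the fewest cells gave no sum here.

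Cxcl3 was detected in 12 of 160 control and 158 of 382 cKO monocyte-like cells, or 7.50% and 41.4%. Thinned to 1000 UMIs per cell, the shares were 2.38% and 16.6%, with 2 cells too shallow in each group. In lymphoid-like cells they were 3.33% and 5.49%, or 1.89% and 1.94% when thinned. Median depth was 4318 and 5626 UMIs in monocyte-like and 3570 and 3244 UMIs in lymphoid-like cells. The thinned share of control monocyte-like cells was thus close to that of lymphoid-like cells, and that of cKO cells was above it.

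Among monocyte-like cells with at least 1000 UMIs, all 12 control and all 158 cKO cells with Cxcl3 also had Cxcl2. Of the cells without Cxcl3, 53.4% and 70.3% had Cxcl2. Cells with Cxcl3 were somewhat deeper, at a median of 5938 against 5413 UMIs in cKO mice.

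Monocyte markers within this cluster summed to between 20628 and 25195 CPM in control and between 23791 and 28754 CPM in cKO mice. The 17 macrophage markers summed to between 3743 and 6387 CPM in control and between 1625 and 2301 CPM in cKO mice. Cells called monocyte-like therefore differed in these markers between the groups. With 12 Ward clusters this cluster split, and the larger part held 132 control and 162 cKO cells. The smaller part held 28 control and 220 cKO cells, with Dmkn, F10 and Arg2 as leading genes. The part of these differences in the Cxcl3 result was not tested.

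Cxcl2 in monocyte-like cells was at 937, 552 and 3161 CPM in control and at 4549, 6391 and 4092 CPM in cKO mice. The groups did not overlap, but the log2 fold change of 1.85 (SE 0.52) missed the threshold (edgeR adjusted p = 0.0644). With limma-voom it passed (2.30, adjusted p = 0.00881). Over the other tools, filters and clusterings the log2 fold change lay between 0.70 and 2.30 (adjusted p up to 0.582), and between 1.37 and 2.82 with a mouse left out (adjusted p up to 0.449, the highest fold without control replicate 4). Cxcl1 was at 0, 0 and 8.95 CPM in control and at 0, 93.8 and 132 CPM in cKO mice (adjusted p = 0.0914), with 2 UMIs in all control cells of the cluster. Cxcl10 was at 133, 5.58 and 53.7 CPM in control and at 90.4, 221 and 150 CPM in cKO mice (log2 fold change 1.32, SE 0.51, adjusted p = 0.309).

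In the other clusters Cxcl2 did not pass. In the Saa3/Il1a cluster it was at 5671 and 6522 CPM in control and at 7682, 11727 and 7543 CPM in cKO mice, without overlap (log2 fold change 0.62, SE 0.57, edgeR adjusted p = 0.845). In the Ccl24/Fam213b cluster control replicate 4, at 5572 CPM, lay among the cKO mice (6048, 4182 and 3101 CPM), and the other control mice were at 1415 and 1351 CPM.

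Cxcl2 was found in 60.8% of control and 79.1% of cKO cells, or 39.2% and 61.4% when thinned. In monocyte-like cells the shares were 56.9% and 82.2% (36.1% and 64.4% thinned), and in lymphoid-like cells 51.1% and 59.3% (19.6% and 27.4% thinned). The transcripts were concentrated, as the top 10% of cells held 68.9% of Cxcl2 UMIs in control and 55.8% in cKO mice, and 1 cell of the Saa3/Il1a cluster held 612.

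In the Cebpb/Ier5 cluster Cxcl3 was at 31.8, 23.7 and 93.6 CPM in control and at 571, 412, 226 and 179 CPM in cKO mice. No cKO mouse overlapped with a control mouse, as for 2.81% of the genes tested. Cxcl3 rose from 49.7 ± 38.2 (n = 3) to 347 ± 180 CPM (n = 4), with a log2 fold change of 2.78 (SE 0.56, edgeR adjusted p = 0.00434). The call was lost with sums from 10 cells, which adds control replicate 3 (1.43, adjusted p = 0.451), and with limma-voom (2.76, adjusted p = 0.0873). It was also lost without control replicate 1 (2.52, adjusted p = 0.119) or 2 (2.46, adjusted p = 0.0561). With 7 clusters these cells were pooled with the Ccl24/Fam213b and Saa3/Il1a clusters into 1206 cells. Cxcl3 missed the threshold in that pool (1.54, edgeR adjusted p = 0.0503). Monocyte markers in this cluster summed to between 5604 and 7236 CPM in control and between 8203 and 14468 CPM in cKO mice, and their part was not tested.

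In 3 more clusters Cxcl3 did not overlap between groups but missed the threshold. In the Saa3/Il1a cluster, where Cxcl1 and Cxcl2 did not overlap either, the log2 fold change was 1.81 (SE 0.48, edgeR adjusted p = 0.0619), and 9.56% of genes had every cKO mouse above every control mouse. In dendritic cell-like cells Cxcl3 was at 3.84, 5.17, 0 and 21.1 CPM in control and at 28.7, 41.9 and 51.7 CPM in cKO mice (2.15, SE 0.58, adjusted p = 0.0763), beside 3.59%. In the Ccl24/Fam213b cluster it was at 45.8, 50.8 and 107 CPM against 280, 176 and 155 CPM (1.49, SE 0.43, adjusted p = 0.113), beside 6.03%.

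For Cxcl10, no cluster alone passed the test. In the Ccl24/Fam213b cluster it was at 85.5, 76.2 and 86.3 CPM in control and at 180, 267 and 194 CPM in cKO mice, without overlap (log2 fold change 1.31, SE 0.47, edgeR adjusted p = 0.356). In lymphoid-like cells it was at 17.4, 31.5 and 28.6 CPM against 60.9, 109 and 114 CPM, also without overlap (1.87, SE 0.85, adjusted p = 0.752), beside 4.03% of genes. In low-depth macrophage-like cells no member had every cKO mouse above every control mouse, beside 2.63% of genes. In the Cebpb/Ier5 cluster the log2 fold change was 1.91 (SE 0.57, adjusted p = 0.174). In the Saa3/Il1a cluster it was 0.33 (SE 0.51, adjusted p = 0.946).

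Cxcl10 was found in 11.5% of control and 19.7% of cKO cells, or 4.54% and 9.05% when thinned. In monocyte-like cells the shares were 6.88% and 16.8%. They were below those of lymphoid-like cells (10.0% and 23.1%), which should hold little of this chemokine. Thinned, they were 3.62% and 7.55% in monocyte-like against 2.19% and 6.60% in lymphoid-like cells, so no change in the share of expressing monocyte-like cells is read from them. Among cells of at least 1000 UMIs, Cxcl10 was in 35.7% of control and 53.2% of cKO cells with Cxcl9, against 10.1% and 19.4% of cells without it.

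Cxcl9 in the Saa3/Il1a cluster was at 503 and 87.5 CPM in control and at 169, 28.8 and 95.1 CPM in cKO mice (log2 fold change -1.69, SE 0.72, edgeR adjusted p = 0.535). The value rested on control replicate 1, without which it was -0.052 (adjusted p = 1), and without control replicate 4 it was -2.58 (adjusted p = 0.0459). Cxcl1 in that cluster was at 21.2 and 40.9 CPM against 91.1, 413 and 198 CPM (2.98, SE 0.95, adjusted p = 0.202). For Cxcl16 the log2 fold changes lay between -0.50 in lymphoid-like cells and 0.75 in the Saa3/Il1a cluster, and none passed.

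The macrophage-like cluster had 1 cKO mouse with 20 cells and was not fitted. With sums from 10 cells (3 control and 4 cKO mice), no member passed there, beside 0.591% of genes. Cxcl2 was at 3111 ± 1059 CPM in control and 2144 ± 1070 CPM in cKO mice (log2 fold change -0.70, SE 0.50, edgeR adjusted p = 0.742), and Cxcl16 at 739 ± 27.7 and 772 ± 53.7 CPM.

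The test that the cKO effect was equal in all fitted clusters called no member, beside 0.0442% of genes (edgeR adjusted p = 1 for each). At an unadjusted level of 0.05 it named 1 member, Cxcl1. DESeq2 and limma-voom called 0. So the Cxcl3 effect was not shown to differ between clusters.

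**Figure D4:**
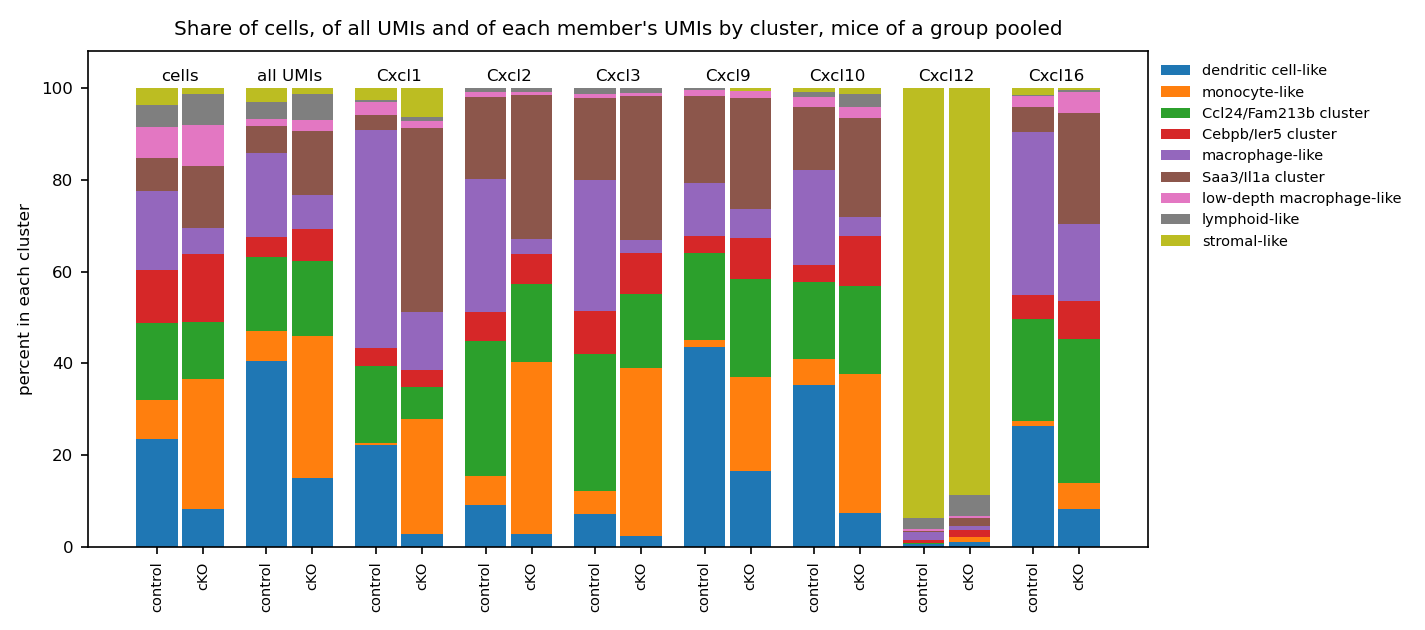
Percent of cells, of all UMIs and of each member's UMIs that fell in each of the 9 clusters, mice of a group pooled, as stacked bars for control and cKO. Monocyte-like cells hold 6.35% of Cxcl2 UMIs in control and 37.3% in cKO mice, beside 6.57% and 31.1% of all UMIs. Stromal-like cells hold nearly all Cxcl12.

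The cells that carried the transcripts were not the same in the 2 groups. Monocyte-like cells made up 8.59% of control and 28.3% of cKO cells. They held 6.35% of Cxcl2 UMIs in control and 37.3% in cKO mice, and 5.08% and 36.7% of Cxcl3 UMIs. Their part of Cxcl10 UMIs went from 5.70% to 30.3%, while that of dendritic cell-like cells went from 35.2% to 7.34%. Of all UMIs, monocyte-like cells held 6.57% in control and 31.1% in cKO mice, and dendritic cell-like cells 40.5% and 14.9%. The monocyte-like shares of Cxcl10, and of Cxcl2 in control mice, were thus close to their shares of all UMIs. Macrophage-like cells, 17.3% of control and 5.56% of cKO cells, held 29.0% and 3.19% of Cxcl2 UMIs. The Saa3/Il1a cluster, 7.03% and 13.4% of cells, held 17.8% and 31.4%. Of all UMIs, macrophage-like cells held 18.4% and 7.46%, and the Saa3/Il1a cluster 5.77% and 13.9%. These are pooled shares with no test, and control replicate 1 gives the most control cells.

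Of the receptors, Cxcr4, the receptor of Cxcl12, rose in all cells, from 134, 127, 154 and 159 CPM in control to 312, 163, 233 and 205 CPM in cKO mice (log2 fold change 0.75, SE 0.19, edgeR adjusted p = 0.0462). This call, 1 of 4 receptors tested, stands beside 4.48% of all genes tested. Cxcr3, the receptor of Cxcl9 and Cxcl10, was at 21.3, 45.3, 23.8 and 20.9 CPM in control and at 12.1, 14.5, 1.21 and 7.44 CPM in cKO mice, without overlap (log2 fold change -1.77, SE 0.49, edgeR adjusted p = 0.063). Every cKO mouse was below every control mouse for 8.34% of all genes tested. Cxcr3 missed the threshold by edgeR, while 1 of the 4 receptors tested was lower by DESeq2 and by the likelihood ratio test. Cxcr6 and Ackr3 had log2 fold changes of 0.60 and -0.42 (adjusted p = 0.48 and 0.739). Cxcr2, Cxcr5 and Cxcr1 had 8, 2 and 1 UMIs and were not tested. Of the other CXC ligands, Pf4, Cxcl13, Cxcl14 and Ppbp had log2 fold changes of -0.63, -0.49, -1.21 and -0.48, and none passed.

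The pathway lists around these chemokines moved as follows in all cells. There the median log2 fold change of all genes tested was -0.03, and 4.48% of them passed, higher or lower. Of 33 NF-kB response genes, 8 rose and 0 fell (median 0.91), among them the granulocyte growth factor Csf3 (4.61), the cytokine Il1a (2.95) and the C-type lectin Clec4e (2.23). In monocyte-like cells 12 of the 33 rose (median 1.31, against 0.08 for all genes tested there, of which 0.947% passed). In the Saa3/Il1a and Cebpb/Ier5 clusters 2 and 1 rose, beside 0.54% and 0.345% of genes. In dendritic cell-like, Ccl24/Fam213b, low-depth macrophage-like and lymphoid-like cells 0 of the 33 passed by edgeR, with medians between 0.39 and 0.67. Of 34 type I interferon response genes tested, 31 rose (median 1.80), led by Ifi44 (4.34), the oligoadenylate synthetase Oas3 (3.08) and the transcription factor Irf7 (2.97).

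Of 32 interferon gamma response genes, to which Cxcl9 and Cxcl10 also respond, 9 rose and 2 fell (median 0.59), with the GTPases Gbp6 (2.12) and Iigp1 (2.11) and the checkpoint ligand Cd274 (1.37) ahead. Of 27 immediate early and stress genes, which dissociation can induce, 0 passed in all cells by the edgeR quasi-likelihood test (median 0.00). There 4 had an unadjusted p under 0.05, and 1 passed by DESeq2 and 1 by the likelihood ratio test. Within clusters 3 were lower in Saa3/Il1a (median -0.49), 1 in low-depth macrophage-like (-0.69) and 1 in Ccl24/Fam213b cells (-0.29). These stand beside 0.54%, 0.0796% and 0.637% of genes. No other cluster fitted had a call, with medians between -0.24 and 0.16. Their part in the results was not tested. The 11 monocyte markers summed to between 4459 and 5924 CPM in control and between 12153 and 15360 CPM in cKO mice. Of them 7 rose by edgeR (median log2 fold change 1.71), beside 4.48% of all genes called higher or lower. The 13 neutrophil markers in the table summed to between 97.6 and 434 CPM in control and between 229 and 498 CPM in cKO mice. Of the 8 tested, 3 rose and 0 fell by edgeR (median log2 fold change 1.70), beside the same 4.48%. By DESeq2 4 were higher, and by the likelihood ratio test 5. Pooled over mice, Ly6g was at 0.57 and 6.07 CPM, Lcn2 at 4.53 and 24.6 CPM and Trem1 at 14.7 and 84.3 CPM. These markers moved beside Cxcl2, Cxcl3 and Cxcl10 in the summed cells, and their part in those results was not tested.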

How the data were processed

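UMI counts per gene and cell of 8 colonic samples were used as deposited; per the labels the authors made them with Cell Ranger and STAR 2.5.3a on mm10, with R 3.5.0 also named in the submitters' processing notes. The deposited counts hold 16889 genes without normalization, 88 of them with no symbol, and every cell column was joined to its mouse by its well. Intervals cover counting error only.

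The members and lists were chosen with earlier results of these data known. Cells with log10 UMIs over 2.8, log10 genes over 2.6 and under 5% mitochondrial UMIs were kept, as the methods state. Doublets were called per mouse with Scrublet in scanpy 1.11.5 and stayed in the main results. Clustering used scran 1.30.0 normalization, 7 principal components and 9 Ward clusters, with 301 genes left out. These were all CXC rows, the lists tested, Slc3a2, the EYFP reporter and a further list of genes tied to the condition. Clusters were named from markers among their 10 leading genes.

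UMIs were added up over all cells of a mouse, or over its cells of 1 cluster where it had 20, and tested with edgeR 4.0.16 (TMM, glmQLFit, glmQLFTest) under R 4.3.3, after a filter of over 1 CPM in at least 3 sums and detection in at least 20 cells, with Benjamini-Hochberg adjustment over all genes tested. The clusters shared 1 fit of 43 sums. In sums over all cells the mouse is the replicate, so p-values measure the spread between mice. The edgeR fit of the clusters had no term for the mouse. Sums of 1 mouse in several clusters thus counted as independent, and these p-values do not measure the spread between mice alone. Depth was between 497531 and 3762314 UMIs per mouse. Alternatives used DESeq2 1.42.0, limma 3.58.1 (voom), other filters, clusterings and left-out mice. The fits were tested on simulated data.

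Genes named are the members, other Cxcl rows with Pf4 and Ppbp, the CXC receptors, Slc3a2, the 3 largest changes past the threshold of each pathway list, and the 3 genes most like each member. Marker genes and cluster-leading genes are named besides. Positions are those of GENCODE vM21 on GRCm38, and promoters are RefSeq windows on GRCm38.p6, which matched 6 of the 7 members (not Cxcl16). Motif matches were sought on both strands of 300-base windows.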

Additional observations from a re-analysis of the deposited data

Results flagged for a closer look

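Cxcl3 in all cells of control replicate 3 stood at 210 CPM, far above the other 3 control mice (30.3, 34.6 and 60.9 CPM), by Dixon's criterion for 4 values. That mouse gave 85 cells, and its Cxcl2 was at 2648 CPM against 1171, 1377 and 3092 CPM in the others. Chance alone marks about 1 in 20 groups in this way, and 7 members were looked at in each group. Of its clusters the dendritic cell-like one alone reached 20 cells, and its 21 cells held 0 UMIs of Cxcl3.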

How the results depend on the processing

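No paired analysis was run, because the labels give no litter or pairing of control mice (replicates 1 to 4) with cKO mice (5 to 8). The call of Cxcl10 in all cells held under every alternative run (log2 fold change 1.12 to 1.43), and so did that of Cxcl3 in monocyte-like cells (2.97 to 4.28). In other clusterings the closest match stood in for each cluster. For monocyte-like cells, the cells in both were 0.54 (12 Ward), 0.46 (graph) and 0.57 (all genes) of those in either. With 12 Ward clusters the match held 162 of the 382 cKO cells. The cause of the changes below was not tested. Members called in all cells numbered 2, but 4 without the low-count filter, 1 without doublet calls, 1 with the stromal-like, lymphoid-like and dendritic cell-like clusters left out, and 1 to 3 with a mouse left out. Cxcl12 then went to -1.60 without the 2 mice with the fewest cells, -1.52 without doublet calls, -1.43 without those clusters and -2.12 to -1.32 with a mouse left out. Within clusters, the 2 calls became 15 without the filter, 10 with each cluster fitted alone, 4, 7 and 8 with 7 Ward, 12 Ward and graph clusters, and 2 to 9 with a mouse left out (9 without control replicate 4, 5 without cKO replicate 6, 4 without control replicate 3). Cxcl3 in the Cebpb/Ier5 cluster was 2.76 with limma-voom, 1.43 from 10 cells and 2.46 to 3.47 with a mouse left out. In the pool of 1206 cells that holds it with 7 clusters, Cxcl3 was at 1.54. The test between clusters called 0 members, and 0 to 2 with a mouse left out (2 without control replicate 4). Mean CPM in control mice moved to 140.4 for Cxcl3 in the Saa3/Il1a cluster with graph clusters and to 2720 for Cxcl12 in stromal-like cells from 10 cells. Genes called in all cells numbered 341 higher and 169 lower, and 111 to 554 and 44 to 484 over the alternatives. Within clusters they numbered 107 in monocyte-like cells (26 to 251), 72 in Ccl24/Fam213b (40 to 168), 61 in Saa3/Il1a (21 to 168), 50 in dendritic cell-like (18 to 107), 39 in Cebpb/Ier5 (2 to 168), 9 in low-depth macrophage-like (4 to 37) and 7 in lymphoid-like cells (2 to 74). With 7 Ward clusters the Ccl24/Fam213b, Saa3/Il1a and Cebpb/Ier5 clusters had the same match, of 1206 cells. With graph clusters Ccl24/Fam213b and Saa3/Il1a had the same match, of 519 cells. Ranges of these clusters are therefore not separate.

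Among members past no threshold, the sign turned for Cxcl16 in all cells (-0.022 without the 2 smallest mice, -0.26 without the clusters above), Cxcl2 in dendritic cell-like cells (-0.38, clustering on all genes) and Cxcl10 in monocyte-like cells (-1.09 with 12, -1.07 with graph clusters, -0.0036 on all genes). It turned on all genes for Cxcl10 in the Cebpb/Ier5 cluster (-0.10) and Cxcl9 in the Saa3/Il1a cluster (0.24). Cxcl16 in the Cebpb/Ier5 cluster went to 0.41, 0.34 and 0.20 (7 clusters, where it is pooled, 12 clusters and all genes). Cxcl2 in low-depth macrophage-like cells went to 0.27 (limma-voom). With a mouse left out, Cxcl16 in the Cebpb/Ier5 cluster ran from -0.26 to 0.034 and Cxcl10 in the Saa3/Il1a cluster from -0.089 to 0.77. In low-depth macrophage-like cells Cxcl1 ran from -8.08 to 2.59, Cxcl2 from -0.58 to 1.25 and Cxcl10 from -0.57 to 1.42, and Cxcl2 in lymphoid-like cells ran from -0.091 to 1.35. The 2 small libraries and the sparse Cxcl1 and Cxcl9 limit precision.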

Other observations

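In the 2734 barcodes that failed the cell filters, no member had every cKO mouse above every control mouse. Cxcl10 was at 194 ± 80.9 CPM in cKO and 100 ± 61.8 CPM in control mice there (SD, n = 4 each), and Cxcl3 at 333 ± 65.8 and 184 ± 211 CPM. Cxcl16 was lower in every cKO than in every control mouse (300.4 ± 61.0 against 482 ± 94.3 CPM), and so was Cxcl9 (15.0 ± 13.7 against 51.2 ± 9.01 CPM, from 48 UMIs). The share of all genes with this order was not counted in these barcodes. In kept cells it was 8.34%, so nothing particular to these members is read from it.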
